A study of Mus musculus with 2 samples.

Results

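Ankrd1, Crim1, Axl, Nuak2, Dlc1, Ptpn14, Asap1, Arhgef17 and Nt5e, 9 genes that are widely used as readouts of the transcriptional coactivators YAP and TAZ and lie outside the CCN family of matricellular proteins, were followed in mouse embryonic fibroblasts (MEFs) with and without the Lats2 kinase. The genes were chosen by name as known YAP targets, from outside the CCN family and with their ratios on these arrays already known. Every difference given for them is thus a description, and the tests run as alternatives on the same values lend it no support. They are 9 of 27745 gene names on the array, and 17 probes represent them. Asap1 carries its older name Ddef1 on the array and was found through the RefSeq gene table. Of the 9 genes, 8 had a higher level in the RNA labelled KO by their brightest probe on both arrays, and Arhgef17 had a lower level. On both arrays 40.2% of all genes tested were above 0. These signs depend on removal of the dye effect along intensity: with median centring of each array in place of loess, 3 members (Ankrd1, Crim1 and Nt5e) were higher on both arrays and 6 had opposite signs, as had 74.7% of all genes tested. Ankrd1 (11.6-fold) and Crim1 (2.47-fold) were at least 2-fold higher on each array, 2 of 9 members, where 2.95% of all genes tested were.

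Total RNA came from primary MEFs of C57BL/6J mice, LATS2-/- (KO) or LATS2+/+ (WT), with no treatment. Some label fields write the genotype as LAT2-/- and LAT2+/+. The labels give no embryo age and no number of embryos or cultures. The study's text speaks of several independent MEF lines, and which of them these arrays hold is not given in the sources used here. Each of 2 Agilent whole mouse genome arrays held both RNAs in different dyes, with KO in Cy5 and WT in Cy3 on the first array and the reverse on the second. Since no label names separate cultures, the pair of arrays counts here as a technical dye swap with 1 replicate of each genotype. Paired values below give the first array before the second. The spread between them measures hybridisation and dye error, and no difference between genotypes has a replicate check.

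In the Hippo pathway, LATS kinases phosphorylate YAP and TAZ, which are then held in the cytoplasm or degraded. When the kinases are inactive, YAP and TAZ enter the nucleus and bind TEAD transcription factors, which recognise a short DNA element and activate genes for matrix, adhesion, cytoskeletal and growth factor signalling. The genes followed here belong to that target programme, and include a nuclear cofactor, cell surface proteins, a kinase, a phosphatase and regulators of small GTPases.

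The upstream sequence of the members was searched for the TEAD core element because it is the site to which TEAD factors bring YAP and TAZ. The 250 bases before the RefSeq transcription start (GRCm38.p6) could be read for 5 of the 9 members, and 4 of these windows held GGAATG on either strand. The element was present in 12.6% of 32851 such windows of all genes. The matched windows are shown 5′ to 3′ on the strand of the gene, with the element (or CATTCC, its reverse complement) in capitals. They lie at chr19:36119845-36120094 (minus strand) for Ankrd1, chr17:78199998-78200247 (plus) for Crim1, chr7:25788734-25788983 (minus) for Axl and chr1:189728018-189728267 (plus) for Ptpn14.
Ankrd1: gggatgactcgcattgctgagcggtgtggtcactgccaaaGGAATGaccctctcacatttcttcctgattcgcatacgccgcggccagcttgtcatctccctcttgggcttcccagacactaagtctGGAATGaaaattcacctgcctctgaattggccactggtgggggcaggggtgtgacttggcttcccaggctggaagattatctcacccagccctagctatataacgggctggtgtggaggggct
Crim1: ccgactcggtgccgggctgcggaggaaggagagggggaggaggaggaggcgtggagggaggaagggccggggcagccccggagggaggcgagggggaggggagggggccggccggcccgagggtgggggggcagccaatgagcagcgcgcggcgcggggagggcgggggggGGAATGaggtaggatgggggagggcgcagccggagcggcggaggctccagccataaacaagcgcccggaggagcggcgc
Axl: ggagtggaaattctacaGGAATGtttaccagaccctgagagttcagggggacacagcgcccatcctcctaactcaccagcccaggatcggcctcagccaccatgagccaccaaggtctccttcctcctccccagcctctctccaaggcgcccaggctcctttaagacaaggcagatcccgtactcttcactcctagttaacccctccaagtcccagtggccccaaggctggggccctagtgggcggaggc
Ptpn14: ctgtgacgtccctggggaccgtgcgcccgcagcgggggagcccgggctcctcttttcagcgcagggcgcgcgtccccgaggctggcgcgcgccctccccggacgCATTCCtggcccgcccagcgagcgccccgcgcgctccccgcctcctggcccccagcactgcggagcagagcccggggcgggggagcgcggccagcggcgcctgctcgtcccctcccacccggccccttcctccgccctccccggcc

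The Ankrd1 window held 2 elements, starting 210 and 123 bases before the start site, and 1.02% of all windows held at least 2. In Crim1 the element started 79 bases upstream, in Axl 233 bases upstream and in Ptpn14, on the opposite strand, 146 bases upstream. The Nt5e window, chr9:88327359-88327608 (plus strand), held none. The AP-1 element TGANTCA, with C or G at N and read on both strands, was in none of the 5 windows, against 4.46% of all windows. A match in these letters is a description of the window and not a measured site.

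Signals on both arrays were similar. The median spot signal was 96.8 units (KO) and 98.5 units (WT) in Cy5, and 58.2 (KO) and 60.1 (WT) in Cy3, over local backgrounds of 30 to 36. No spot was saturated. The log2 ratios of KO over WT are means of both arrays after background correction and loess normalisation, with the sign of the second array turned. Over the 22357 probes well above background in both RNAs, a single probe had an SD of 0.137 on the log2 scale between the arrays. Of the 17 member probes, 15 were well above background in both RNAs on both arrays, as were 22357 of 40875 probes with a value on both arrays. A mean ratio larger in size than that SD was seen at 16 of the 17. The share of all probes beyond the SD was not counted. Among all genes tested the 10th and 90th percentiles of the ratio were −0.54 and 0.54.

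The targeted gene was examined first. Lats2 has 4 probes, and the brightest had a log2 ratio of 0.56 (0.52 on the first array and 0.60 on the second). Another pair gave 0.56 and 0.63, and the last gave −0.35. Its RNA level was thus not lower at 3 of 4 probes, which on its own goes against the label of the KO channel. For its Lats2 KO MEFs the study reports a western blot of the protein as the check of the knockout. Whether these arrays hold the same cells is not given in the sources used here. A probe outside the deleted part would check nothing, and the position of the deletion is not given in the sources used here. All directions below therefore refer to RNA by its label, with KO and WT standing for the RNA labelled so.

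**Figure D1:**
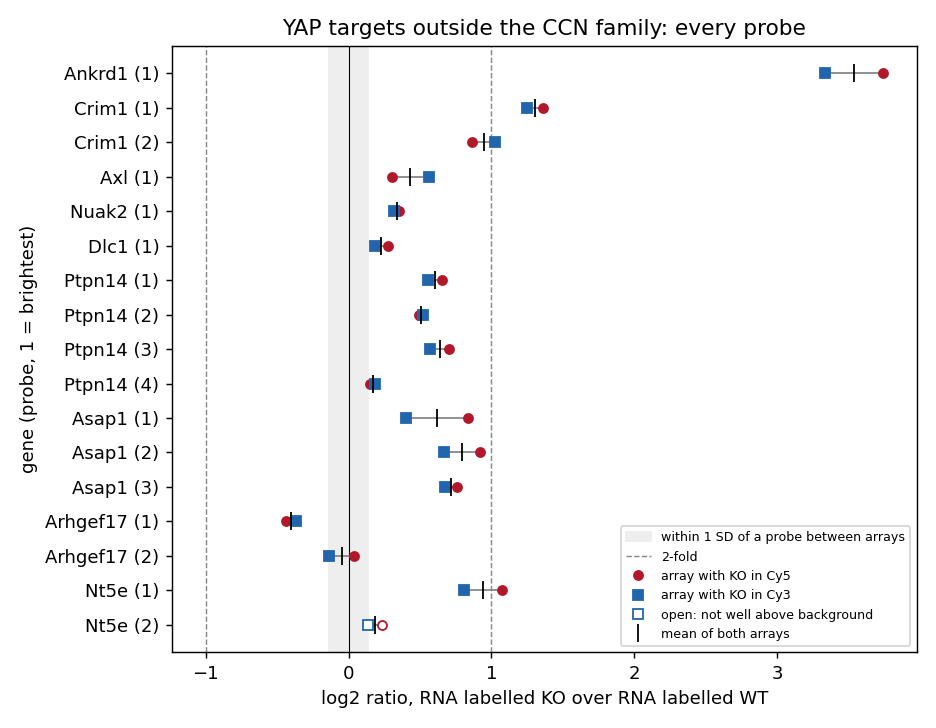
Log2 ratio of KO over WT RNA for the 17 probes of the 9 genes, with circles for the array with KO in Cy5, squares for the array with KO in Cy3 and ticks for their mean. Ankrd1 lies at 3.54, the brightest Crim1 probe at 1.30, and both Arhgef17 means are below 0. The grey band spans 1 SD of a probe between arrays (0.137) on each side of 0, and open symbols mark a probe that did not clear background in any channel.

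Ankrd1 encodes an ankyrin repeat protein induced by stretch and stress that acts in the nucleus as a transcriptional cofactor and in muscle at the sarcomere. Its single probe lies at chr19:36177463-36177522 (mm8, minus strand), and its place within the gene was not analysed here. In Cy5 the spot signal was 30828 units for KO and 2994 for WT, and in Cy3 it was 11997 for KO and 827 for WT. The KO signal was the higher one in both dyes. After scaling between channels the levels were 18911 and 18944 for KO and 1417 and 1877 for WT, with no overlap. Such separation of KO and WT levels, here and below, is a description of technical values and not particular to the members. Of all genes tested, only 18.3% had opposite signs on the arrays, and the share with separate levels was not counted. On the log2 scale the ratio was 3.74 and 3.34, with a mean of 3.54 ± 0.29 (SD between 2 arrays). It stood 25th from the top among the 15877 genes well above background in at least 1 RNA. Bulk RNA cannot separate more RNA per cell from a larger share of cells of a type. Striated muscle, where Ankrd1 is abundant, was checked with 8 markers. Of the 7 with a usable probe, only Acta1 (log2 ratio 0.26) and Tnnt2 (0.66) were above background, none was past 2-fold on each array, and the defining markers Myog, Myod1, Des, Myh3 and Ckm did not clear background in KO or WT. The other Tnnt2 probe gave −0.10. The summed level of the list was 12451 and 12539 for KO and 10257 and 10385 for WT, most of it from Acta1. On the log2 scale Acta1 had 13.5 for KO and 13.2 for WT, against 13.6 and 13.3 for the list.

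The cell surface members came next. Crim1 is a transmembrane protein with cysteine-rich repeats that binds bone morphogenetic proteins. Its brightest probe, at chr17:78281017-78281076 (mm8, plus strand), gave levels of 10630 and 10085 for KO and 4135 and 4253 for WT. Both KO levels were above both WT levels. Its log2 ratio was 1.36 and 1.25, with a mean of 1.30 ± 0.083 (SD, 2 arrays). The second probe, at chr17:78279471-78279530, gave a lower ratio of 0.95 (0.86 and 1.03), so the 2-fold threshold was passed on each array by the brighter probe only. With median centring in place of loess the arrays gave 2.35 and 0.41 for the brighter probe, which ended its call.

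Axl is a receptor tyrosine kinase of the TAM family, with Tyro3 and Mertk, and its ligand is Gas6. Its probe at chr7:25466694-25466753 (mm8, minus strand) gave levels of 5778 and 6560 for KO and 4688 and 4448 for WT. The ranges did not overlap, although the arrays differed in the size of the gap. Log2 ratios of 0.30 and 0.56 gave a mean of 0.43 ± 0.18, or 1.35-fold.

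Nt5e is the ecto-nucleotidase that turns extracellular AMP into adenosine. The brighter of its 2 probes, at chr9:88169671-88169730 (mm8, plus strand), was dim. In Cy5 the signal was 172 for KO and 58.1 for WT over backgrounds of 33, and in Cy3 it was 77.1 for KO over 28 and 40.1 for WT over 32. The probe was well above background in KO on 2 of 2 arrays and in WT on 1 of 2. The log2 ratio was 1.08 and 0.81 (mean 0.94 ± 0.19). The size of this ratio changed with the background step. It was 2.82 in Feature Extraction's own ratio, 1.68 with an offset of 10 and 0.73 with no background subtraction. The KO signal was the higher one under each of these. The other probe, spanning chr9:88167096-88168062, did not clear background in any channel of the arrays, with signals of 32.5 to 41.3 units, and no fold is given for it.

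**Figure D2:**
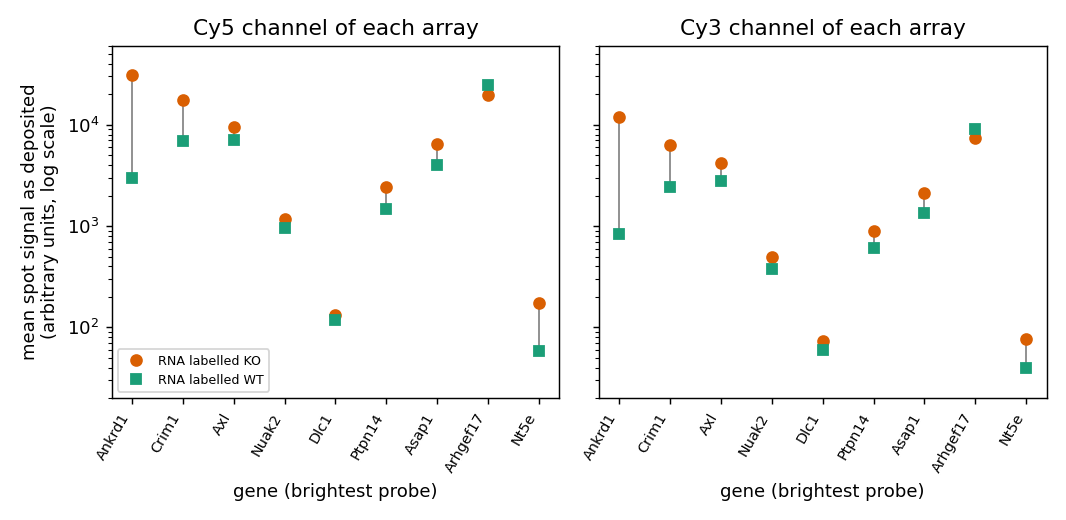
Mean spot signal as deposited, in arbitrary units on a log axis, of the brightest probe of each of the 9 genes, with KO (circles) and WT (squares) shown in the same dye across the 2 arrays. Ankrd1 had 30828 units in KO against 2994 in WT in Cy5, and Arhgef17 is the gene with WT above KO in both dyes.

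Nuak2 is a kinase related to AMPK that acts on myosin phosphatase. Its probe at chr1:134160641-134160700 (mm8, plus strand) gave levels of 785 and 795 for KO and 615 and 638 for WT. The 4 levels separated by genotype, but the gap was small. Its log2 ratio was 0.35 and 0.32 (mean 0.34 ± 0.027), or 1.26-fold. Feature Extraction's error model gave its own ratio an error of 0.21 on each array, also on the log2 scale.

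Ptpn14 is a non-receptor tyrosine phosphatase that binds YAP. It has 4 probes on chromosome 1, all on the plus strand. The brightest, at chr1:191552696-191552755 (mm8), gave levels of 1564 and 1403 for KO and 994 and 954 for WT, with no overlap. The arrays gave log2 ratios of 0.65 and 0.56 (mean 0.60 ± 0.069). The probes further downstream, at chr1:191570788-191570847 and chr1:191576946-191577005, were close to it at 0.51 and 0.64. The most upstream probe, at chr1:191541265-191541324, gave 0.17 (0.15 and 0.18) from signals of 58.9 to 115 units. All 4 probes were above 0 on both arrays, and their means spanned 0.47 on the log2 scale. The dim probe came closer to the others in Feature Extraction's own ratio, which was 0.65 for it, next to 0.63, 0.62 and 0.88.

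The regulators of small GTPases differed in direction. Dlc1 encodes a GTPase-activating protein. Its probe at chr8:38038630-38038689 (mm8, minus strand) had signals of 133 (KO) and 119 (WT) in Cy5 and 74.1 (KO) and 59.9 (WT) in Cy3. The KO signal was a little higher in each dye. On the log2 scale its ratio was 0.27 and 0.18 (mean 0.23 ± 0.063), and 0.49 in Feature Extraction's own ratio.

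Asap1 is a GTPase-activating protein for Arf that acts at adhesions and podosomes. Its brightest probe, at chr15:63918537-63918596 (mm8, minus strand), gave levels of 4016 and 3354 for KO and 2254 and 2538 for WT. The genotypes did not overlap, but the KO and WT levels lay closer on the second array. Log2 ratios were 0.83 and 0.40 (mean 0.62 ± 0.30). The other probes, at chr15:63916926-63916985 and chr15:63947936-63947995, gave 0.79 (0.92 and 0.67) and 0.72 (0.76 and 0.68). The 3 probes thus lay within 0.18 of each other on the log2 scale, but further apart in Feature Extraction's own ratio (0.66, 0.82 and 1.06).

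Arhgef17 is a guanine nucleotide exchange factor, and the only member with a lower level in the RNA labelled KO. Its brightest probe, at chr7:100746239-100746298 (mm8, minus strand), gave levels of 11675 and 11660 for KO and 15819 and 15037 for WT. Both KO levels were below both WT levels. This gave log2 ratios of −0.44 and −0.37 (mean −0.40 ± 0.050). The second probe, at chr7:100744062-100744121, gave −0.05, with 0.04 on one array and −0.14 on the other, so the probes of Arhgef17 differed by 0.35 on the log2 scale and the dimmer one had no settled sign.

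Taking the brightest probe of each gene, the 9 log2 ratios ranged from −0.40 to 3.54, with a median of 0.60 (0.65 on the first array and 0.56 on the second). The median was 0.52 without Asap1, the gene found under its older name. Over the 15877 genes tested the median was −0.0037 and the 10th and 90th percentiles were −0.54 and 0.54, and 8.05% of genes had a ratio above that of the median member. At a threshold of 2-fold in the same direction on each array, 2 of 9 members were thus higher in KO and 0 were lower, where 2.61% of all genes tested were lower. Since these ratios were known when the genes were picked, the counts are given as a description.

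**Figure D3:**
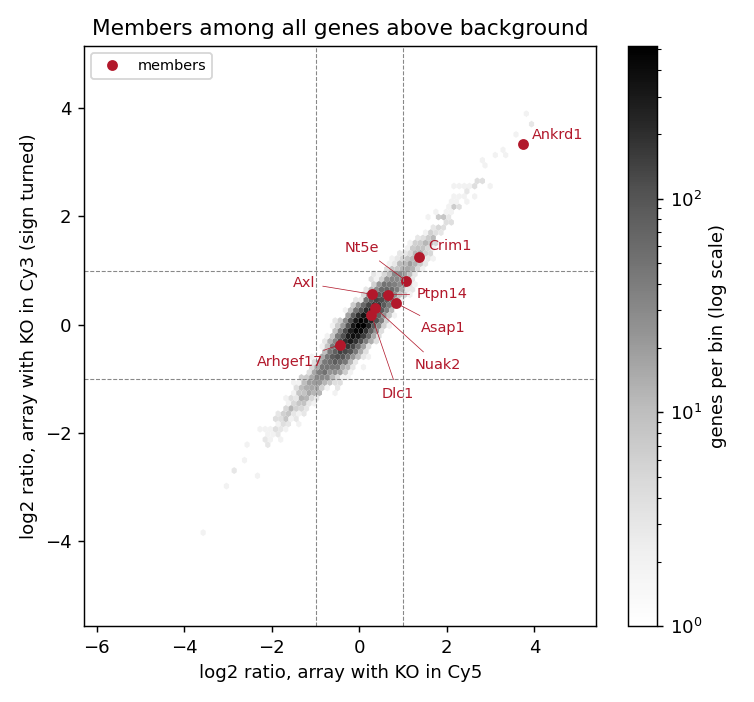
Log2 ratio on the array with KO in Cy5 (x axis) against that on the array with KO in Cy3, sign turned (y axis), for the 15877 genes well above background in at least 1 RNA (grey, darker for more genes per bin) and the 9 members (red). Ankrd1 lies near the upper end of the diagonal, Crim1 is the only other member beyond the 2-fold lines on both axes, and Arhgef17 is below 0 on both.

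Other conserved YAP/TAZ targets were read from a list of 14 genes, of which 12 could be measured. The list was chosen with earlier results of these data known. The median of the log2 ratios was 0.56, and 7 were higher and 4 lower on both arrays, where 40.2% of all genes tested were higher. Past 2-fold on each array, 2.95% of all genes tested were higher and 2.61% lower. In the list, 4 were higher in KO and 0 lower. These were F3, the coagulation initiator tissue factor, at 2.58 (2.62 and 2.55), Igfbp3, an insulin-like growth factor binding protein, at 1.26 (1.36 and 1.17), Tgfb2, a transforming growth factor, at 1.24 (1.22 and 1.26), and Amotl2, an angiomotin that binds YAP, at 1.14 (1.16 and 1.12). The probes of Igfbp3 disagreed, from 0.07 to 1.26. Gadd45a, a stress response gene, was the lowest at −0.48 (−0.45 and −0.51). Lats2 is on this list and on the next.

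**Figure D4:**
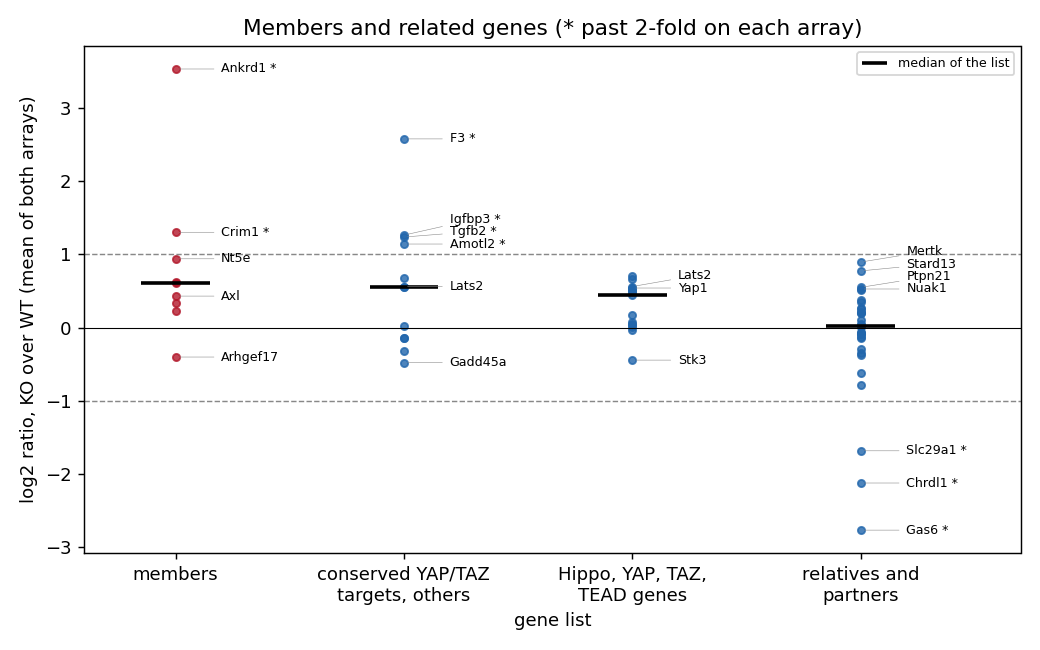
Log2 ratio of KO over WT (mean of both arrays, brightest probe) for each gene with a usable probe in the 4 lists, with black bars at the list medians of 0.60, 0.56, 0.45 and 0.02 from left to right. Asterisks mark genes past 2-fold on each array, which are higher in KO among the members and other targets and lower among the relatives and partners.

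Among 15 genes of the Hippo pathway and its transcription factors, none was past 2-fold on each array. The median was 0.45 (0.26 on the first array alone and 0.43 on the second). On both arrays 11 were higher and 2 lower, where 40.2% of all genes tested were higher. Yap1 itself was at 0.54 but its arrays differed (0.26 and 0.83), Wwtr1, which encodes TAZ, was at 0.05, and Tead2 was at 0.70. A list of 30 relatives and partners of the members had a median of 0.02, and 27 were above background in at least 1 RNA. On both arrays 13 of the 30 were higher and 10 lower. Of all genes tested, 40.2% were higher on both arrays and 18.3% had opposite signs. None of the 30 was called higher (2.95% of all genes tested) and 3 were called lower (2.61% of all genes tested).

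These 3 were partners of surface members. Gas6, the ligand of Axl, was at −2.77 (−2.74 and −2.80), while Axl was at 0.43, the related receptor Mertk at 0.90 and Tyro3 at −0.09. The other ligand on the list, Pros1, was at 0.0026. Slc29a1, a nucleoside transporter that carries adenosine, was at −1.68 (−1.69 and −1.68). Ada, which deaminates adenosine, was at −0.63, the receptor Adora2b at 0.51 and the dim brighter probe of Nt5e at 0.94. Of the other Nt5e relatives on the list, Adora1 was at 0.21 and Adora2a at 0.20 by their brightest probes. Adora3 (−0.06) and Entpd1 (0.05) were not well above background in KO or WT. Chrdl1, an antagonist of bone morphogenetic proteins, was at −2.13 (−2.30 and −1.95) by its brightest probe, and another of its 3 probes gave 0.02. Of the paralogs and related regulators, Nuak1 was at 0.53 beside 0.34 for Nuak2, Ptpn21 at 0.55 beside 0.60 for Ptpn14, and Stard13 at 0.78 beside 0.23 for its relative Dlc1. Their lowest probes gave less, with 0.29 for Nuak1, 0.40 for Ptpn21 and 0.36 for Stard13. Asap3, at −0.38 beside 0.62 for Asap1, and Arhgef10l, at 0.38 beside −0.40 for Arhgef17, had the opposite sign to their member. The other probe of Arhgef10l gave −0.01. Asap2 (−0.136), Kcp (−0.132 beside 1.30 for Crim1) and Ankrd2 (−0.094) lay within the SD of 0.137 between arrays, so their sign is not settled. Ankrd23, at 0.25, had the same sign as Ankrd1 at 3.54. Ppp1r12a, the myosin phosphatase subunit on which NUAK kinases act, was at −0.78, short of 2-fold on each array.

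The cell type given in the labels was checked with marker lists. All 8 fibroblast markers were above background in at least 1 RNA. Their median log2 ratio was −0.43, 6 of 8 were lower in KO on both arrays, none past 2-fold on each array, and their summed level was 103816 and 94876 for KO and 127201 and 134277 for WT. The ranges did not overlap. Thy1 made the largest contribution to this sum, with log2 levels of 15.4 for KO and 15.9 for WT, so the sum does not describe the list evenly. Its brightest probe had a log2 ratio of −0.45 and its other probe 0.13. Another Dcn probe gave 0.05 beside −0.25. The Col3a1 probes ran from −0.49 to −0.03 and the Pdgfra probes from −0.41 to −0.06, while the Col1a1 probes ran from −0.56 to −0.51. Vim did not clear background in both RNAs, with log2 levels of 6.27 for KO and 7.15 for WT. The endothelial list had 0 of 4 markers above background, the epithelial list 1 of 5 (Krt14) and the leukocyte list 2 of 4 (Cd68 and Csf1r), and none of these was past 2-fold on each array. The part of the fibroblast marker shift in the member ratios was not tested.

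**Figure D5:**
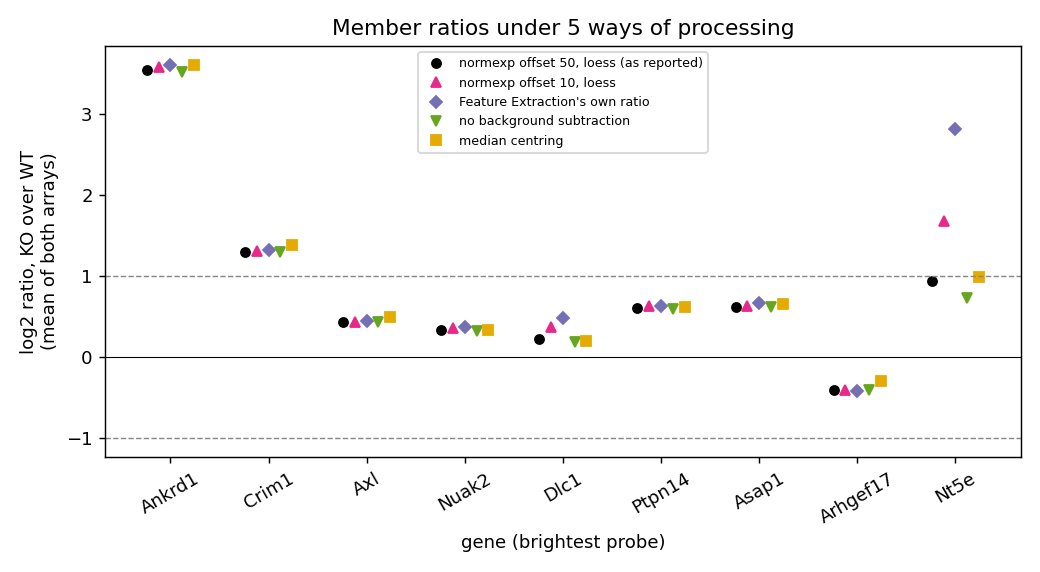
Log2 ratio of KO over WT (mean of both arrays) of the brightest probe of each member under 5 ways of processing the same spots. Nt5e moved from 0.73 with no background subtraction to 2.82 in Feature Extraction's own ratio and Dlc1 reached 0.49 in the latter, while Ankrd1 lay between 3.51 and 3.61.

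The order of the members also depended on the processing, as the plot of member ratios under 5 ways of processing shows. Ankrd1 was highest under each way drawn there and Arhgef17 was the lowest, at −0.30 to −0.41. Nt5e exceeded Crim1 in Feature Extraction's own ratio (2.82 against 1.32) and with an offset of 10 (1.68 against 1.32), and was below it otherwise. For Axl the values ran from 0.43 to 0.50, for Nuak2 from 0.33 to 0.37, for Ptpn14 from 0.59 to 0.63 and for Asap1 from 0.61 to 0.66. Dlc1 ran from 0.19 to 0.49, passing Nuak2 with an offset of 10 (0.370 against 0.363) and both Nuak2 (0.37) and Axl (0.45) in Feature Extraction's own ratio.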

How the data were processed

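Dye-swapped 2-colour arrays of LATS2-/- and LATS2+/+ MEFs were analysed from the deposited scanner files. Per the file headers, the authors read them with Agilent Feature Extraction 10.5.1.1, which gave each spot's mean signal and local background as intensity in arbitrary units, a log10 ratio of Cy5 over Cy3, and an error score for that ratio. The deposited log2 table differed from Feature Extraction's log2 ratio of KO over WT by 2.03e-07 on the first array and 2.04e-07 on the second at the median probe, and by more at some dim probes. Probe coordinates are on mm8.

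Background correction used normexp with an offset of 50 (limma 3.58.1, R 4.3.3), and ratios were normalised by loess within each array. The offset shrinks the ratios of dim probes. Controls and outlier-flagged spots (0.899% and 0.871%) were left out. Spots of a probe were averaged, the second array's sign was turned, and both arrays were averaged. Channel levels were scaled with Aquantile after loess. A gene was represented by its brightest probe, and was called at 2-fold or more in the same direction on each array if well above background on both arrays in the higher RNA. The study's methods set the same fold. Named were all members with every probe, the called and the lowest genes of the target and relative lists, Lats2 and defining markers. Other genes of the lists named as comparisons were picked after their values were seen. Members and lists were chosen with earlier results of these data known.

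In a simulated dye swap of 41174 probes, 57% of 100 probes changed by 1.5 on the log2 scale were called. Of 100 changed by 2.5, 90% were called, and 0 unchanged probes were. The changed probes were drawn from those well above background in both dyes on both arrays, unlike the dim Nt5e probes. The simulated noise was small against the 2-fold threshold and held no variation between cultures. The 0 was thus set by the design and is not a measured rate of false calls. The number of arrays (2) limits the precision. Upstream windows came from RefSeq (GRCm38.p6), and 4 members (Nuak2, Dlc1, Asap1 and Arhgef17) have no entry in the table used. Alternatives were Feature Extraction's ratio, the deposited table, median centring, an offset of 10, no background subtraction, flagged spots kept, means over probes, other detection filters, single arrays, a 1.5-fold threshold, the methods' t-test and limma on the arrays. Tables and plots were made with matplotlib 3.10.9, scipy 1.17.1, numpy 2.4.6, pandas 2.3.3 and Python 3.11.15.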

Additional observations from a re-analysis of the deposited data

How the results depend on the processing

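Under the 6 alternatives that can move the mean of both arrays for a probe, the 17 member probes gave 102 values, of which 84 lay within the spread between arrays of the reported mean, 15 were larger in size and 3 smaller. The deposited table nearly repeats Feature Extraction's ratio, with 6 values moved in each, so these 2 are not separate alternatives in the counts. All 102 values are dye-swap means, in which opposite shifts of the arrays cancel. On single arrays median centring gave −0.27 for Axl, −0.41 for Nuak2, −0.02 for Dlc1, −0.21 for Ptpn14 and −0.41 for Asap1 on the second array and 0.64 and −1.23 for the brightest Arhgef17 probe, so 3 of 9 members were higher on both arrays in place of 8, while the other 5 left 8. The members' median of 0.605 became 0.479 with means over probes, 0.518 where both RNAs had to be above background and 0.518 without Asap1, an alternative added after seeing the data. The other targets' median of 0.558 became 0.427 with means over probes and 0.611 with median centring. Median centring called 1 member higher (Ankrd1, without Crim1) in place of 2. The split of all genes called was 469 higher and 414 lower (53.1% higher), against 250 and 138 with median centring (64.4% higher), 941 and 866 in Feature Extraction's ratio, 944 and 868 in the deposited table, and 1118 and 1139 at 1.5-fold. Nt5e was called as well in Feature Extraction's ratio, in the deposited table, with an offset of 10 and at 1.5-fold, which gave 3 members each. After Benjamini-Hochberg adjustment the methods' t-test called 0 members and 0 genes higher and 0 lower, where it called 2 members and 408 and 358 genes unadjusted and limma called 517 and 489. These tests compare the hybridised RNAs, on values known when the members were picked, so they lend no support to the member calls. Single arrays gave member medians of 0.556 to 0.654, 2 to 3 members called higher, 523 to 563 genes higher and 467 to 538 lower, and medians of 0.553 to 0.555 for the other targets. No paired analysis was possible because a single replicate of each genotype leaves nothing to pair. Signal over background limits Nt5e, Dlc1 and the dimmest Ptpn14 probe, whose ratios rest on signals within a few fold of the local background.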

Other observations

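A pair of YAP/TAZ targets left out of the counts had their only probe removed by an outlier flag on the array with KO in Cy3. With flagged spots kept, the probe of Ctgf, a CCN family member, gave log2 ratios of 1.97 on the first array and 1.58 on the second. The probe of Ccdc80, a secreted matrix protein, gave −0.61 and −0.94. Actc1, the striated muscle marker without a usable probe, was flagged on the array with KO in Cy5 and gave −0.11 and 0.16 with flagged spots kept.

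Tns1, an adhesion protein that binds Dlc1, had 5 probes whose mean log2 ratios ran from −0.06 to 1.20, with 0.20 for the brightest.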
